A study of Mus musculus with 9 samples.

Results

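Knockdown of Stag3 was compared with a control siRNA in mouse embryonic stem cells, over all genes. The comparison takes the 3 libraries of cells given siRNA against Stag3 (siStag3) and the 3 libraries of cells given siRNA against luciferase (siLuc), 6 of the 9 libraries of the series, as the column names of the count table give them. The other 3 libraries are from untreated cells and were used for the estimate of spread and as a further level beside the siRNA groups. All 9 libraries are bulk mRNA sequencing of E14 cells, a wildtype mouse embryonic stem cell line, grown on fibronectin in naive 2i/LIF medium. This medium contains a MEK inhibitor, a GSK3 inhibitor, the cytokine LIF and KnockOut Serum Replacement in place of serum. Both siRNA groups were transfected with RNAiMax Lipofectamine at seeding and again on the following day, and were treated for 48 hours. The untreated cells received no siRNA. The labels call the 3 samples of each group biological replicates and describe 1 cell line. The sequence and number of the siRNAs were not used here.

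STAG3 is a variant of the STAG subunit of cohesin, a ring-shaped complex that ties sister chromatids to each other and forms chromatin loops. STAG1 and STAG2 are the variants of somatic cells, and STAG3 is best known from meiosis, where it pairs with the meiosis-specific subunits REC8, RAD21L and SMC1B. The title of the series places STAG3 in the cytoplasm, in the control of mRNAs and of the exit from pluripotency, so genes of small RNA pathways, mRNA decay and pluripotency are described beside the cohesin genes.

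Stag3 mRNA fell to 61.2% of its siLuc level. Stag3 stood at 22.5, 23.3 and 26.7 CPM (counts relative to the library total) in the siLuc libraries, and at 13.5, 15.2 and 15.6 CPM in the siStag3 libraries. The untreated libraries held 24.1, 24.3 and 28.6 CPM, so every siStag3 library lay below every other library. The means were 24.2 ± 2.20 CPM in siLuc and 14.8 ± 1.12 CPM in siStag3 (SD, n = 3 each), and the 9 libraries held 474 to 1320 Stag3 counts each. The log2 fold change was -0.71 (SE 0.0721, 95% interval -0.86 to -0.55, adjusted p = 0.00205 by the quasi-likelihood test of edgeR with the set as covariate). A two-sided exact permutation test of the 6 CPM values gave p = 0.1, the smallest value that 3 against 3 libraries allow. Without the siStag3 library of Set 1 experiment 1, the log2 fold change was -0.67 and the adjusted p rose to 0.0582. In RefSeq (GRCm38.p6), Stag3 overlaps Gal3st4 and Gpc2, whose reads could be shared with it, and Gpc2 had a log2 fold change of 0.05 (95% interval -0.22 to 0.33). GENCODE M21 lists no gene that overlaps Stag3, and 1.21% of the 31-base stretches of its transcript also occur in other genes. In bulk libraries, fewer cells that express a gene and less RNA per cell cannot be told apart.

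The column names carry a set number, which the labels leave undefined. Every group consists of 2 Set 1 libraries and 1 Set 3 library. In Set 3, the siLuc library is from experiment 1, whereas the siStag3 and untreated libraries are from experiment 5. Total counts ran from 29332436 to 44527534 per library, and mitochondrial genes took 3.48% to 6.78% of them. The 8 markers of embryonic stem cells (Pou5f1, Sox2, Nanog, Zfp42, Esrrb, Klf4, Dppa5a and Tdgf1) were at 168 to 1246 CPM in every library. Of 13 primitive endoderm markers 9 passed the count filter, and their list summed to 74.6 to 113 CPM per library. The trophoblast markers summed to 12.8 to 17.0 CPM, with 9 of 10 tested. The fibroblast markers summed to 1432 to 2111 CPM, nearly all of it Fn1, while Col1a2, Col3a1, Postn and Dcn did not pass the filter.

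Apart from Stag3, 3 genes differed between siStag3 and siLuc at an adjusted p below 0.05 among 14246 tested. Glrx and Tmem50a were higher and Rbm47 was lower, with changes of about the size of the Stag3 knockdown or smaller. The share of all genes called was 0.0281%, or 4 genes, of which 2 were higher (0.014%) and 2 lower (0.014%). At an unadjusted p below 0.05, 7.88% of genes (1122) differed. The fit used the set as covariate; without a set term edgeR called 0 genes, with 307 genes (2.15%) at an unadjusted p below 0.05, and the biological coefficient of variation was 14.6% in place of 7.62%. The DESeq2 Wald test with the set as covariate called 22 genes, among them all 4.

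**Figure D1:**
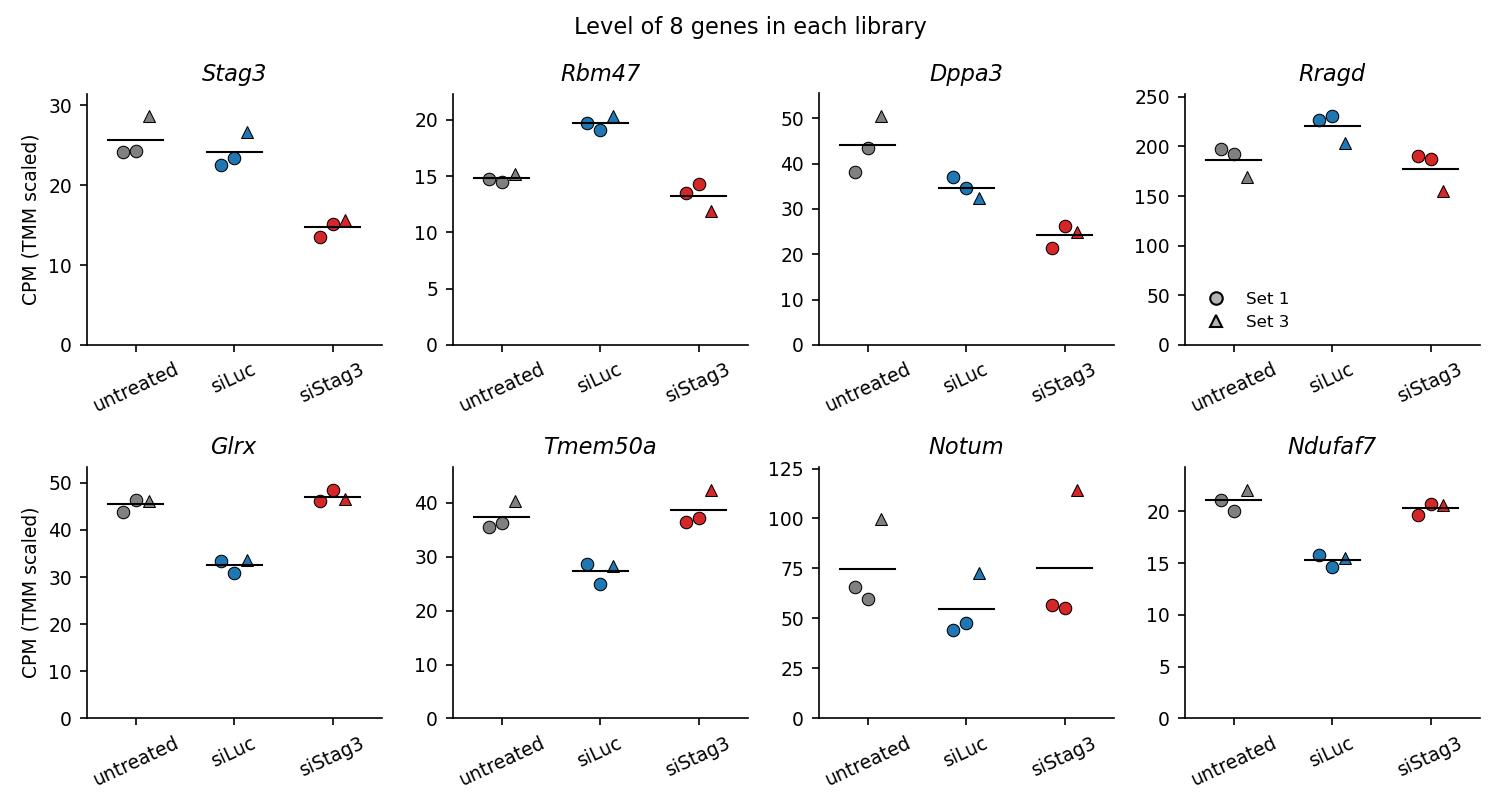
CPM, scaled by TMM factors, of 8 genes in each library of the untreated, siLuc and siStag3 groups. Circles are Set 1, triangles are Set 3 and bars are group means of 3 libraries. For Stag3 and Dppa3 the siStag3 libraries lie below both other groups, whereas for Glrx, Tmem50a and Ndufaf7 the siLuc libraries lie below both.

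Glrx encodes glutaredoxin, a small enzyme that reduces disulfide bonds between proteins and glutathione. It was at 33.3, 30.8 and 33.6 CPM in siLuc and at 46.1, 48.5 and 46.6 CPM in siStag3, so the 2 groups did not overlap. The untreated libraries were at 43.8, 46.3 and 46.2 CPM, close to siStag3. The log2 fold change of siStag3 against siLuc was 0.53 (95% interval 0.40 to 0.67, adjusted p = 0.00628 by edgeR), with 0.56 in Set 1 and 0.47 in Set 3. Glrx lost its call without the siLuc library of Set 1 experiment 3 (adjusted p = 0.0595 by edgeR) and without the siStag3 library of Set 1 experiment 1 (0.0824).

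Tmem50a, which encodes a small membrane protein, was at 28.6, 24.9 and 28.3 CPM in siLuc and at 36.4, 37.2 and 42.4 CPM in siStag3. Here too the groups did not overlap, and the untreated libraries, at 35.5, 36.2 and 40.4 CPM, lay with siStag3. The log2 fold change was 0.50 (95% interval 0.35 to 0.65, adjusted p = 0.0221 by edgeR), with 0.46 in Set 1 and 0.58 in Set 3. The call held in 2 of 6 fits that left out 1 library, without siLuc Set 1 experiment 1 and without siStag3 Set 3 experiment 5. In the other 4 fits, which left out siLuc Set 1 experiment 3, siLuc Set 3 experiment 1 or either siStag3 library of Set 1, the adjusted p ran from 0.0681 to 0.183.

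Rbm47 encodes an RNA-binding protein that acts in mRNA editing and alternative splicing. Its siLuc libraries held 19.74, 19.07 and 20.32 CPM and its siStag3 libraries 13.5, 14.3 and 11.9 CPM. All siStag3 libraries lay below all siLuc libraries, and the untreated libraries, at 14.8, 14.4 and 15.2 CPM, lay just above siStag3. The log2 fold change was -0.57 (95% interval -0.75 to -0.40, adjusted p = 0.0277 by edgeR), with -0.48 in Set 1 and -0.77 in Set 3. Rbm47 kept its call in 1 of 6 fits with a library left out, that without siStag3 Set 1 experiment 3. In the other 5 its log2 fold change ran from -0.60 to -0.48, with an adjusted p of 0.0673 to 0.294.

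The choice of libraries in the fit also ended these calls. With only the 6 libraries compared, the adjusted p by edgeR was 0.067 for Glrx, 0.157 for Tmem50a and 0.157 for Rbm47. In Set 1 alone, Tmem50a and Rbm47 had 0.143.

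The untreated libraries gave these genes a further level. Both comparisons with untreated cells use the same 3 untreated libraries, and each shares its siRNA libraries with the comparison above, so their values are not independent of it. In siLuc against untreated, Glrx had a log2 fold change of -0.48 (adjusted p = 0.00134 by edgeR with the set), Tmem50a -0.45 (0.00355) and Rbm47 0.41 (0.018). In siStag3 against untreated, the same genes had 0.05 (adjusted p = 0.699), 0.05 (0.739) and -0.16 (0.338). Stag3 had -0.09 (0.429) in siLuc and -0.79 (9.18e-05) in siStag3. Over all genes, 4.2% were called in siLuc against untreated and 2.53% in siStag3 against untreated. For Glrx, Tmem50a and Rbm47 the siLuc libraries lay outside the range of the other 6 libraries, and for Stag3 the siStag3 libraries did.

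Dppa3 encodes a maternal factor that protects DNA methylation in the early embryo and marks naive stem cells. It was at 37.0, 34.7 and 32.3 CPM in siLuc and at 21.4, 26.2 and 24.9 CPM in siStag3, without overlap. The untreated libraries were highest, at 38.1, 43.5 and 50.4 CPM. The log2 fold change was -0.52 (95% interval -0.75 to -0.30), which did not pass the threshold in edgeR (adjusted p = 0.168) and passed it in DESeq2 (0.00264). It was -0.60 in Set 1 and -0.37 in Set 3. Against untreated cells the log2 difference was -0.34 in siLuc (adjusted p = 0.0659 by edgeR) and -0.86 in siStag3 (0.000781). In GENCODE M21, 31.8% of the 31-base stretches of its transcript also occur in other genes, so part of its count could come from copies.

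The other STAG genes did not pass the test. Stag1 stood at 173, 172 and 122 CPM in siLuc and at 172, 171 and 99.4 CPM in siStag3, in the order Set 1, Set 1 and Set 3. Within Set 1 its siStag3 libraries (171.68 and 171.26 CPM) lay just below its siLuc libraries (173.4 and 171.86 CPM), a difference of -0.01 log2 CPM. The log2 fold change of Stag1 was -0.10 (95% interval -0.24 to 0.04). Stag2 stood at 93.9, 90.6 and 84.9 CPM in siLuc and at 93.0, 100 and 63.5 CPM in siStag3. The log2 fold change of Stag2 was -0.09 (95% interval -0.28 to 0.10), made up of 0.06 in Set 1 and -0.42 in Set 3. For both genes a change of 0.5 on the log2 scale, in either direction, lay outside the 95% interval.

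The differences of the 2 sets had little in common over all genes. Among the 9060 genes whose mean reached 3 log2 CPM, 44.8% had the same sign in Set 1 and Set 3, and the differences of the sets correlated across genes with r = -0.0713. Genes are not independent replicates, and the Set 3 difference rests on 1 library a group. The Set 3 difference followed the GC content of the transcript. Its median was -0.29 in the 3557 genes of lowest GC content (up to 44.5%) and 0.24 in the 3557 genes of highest (from 54.4%), against 0.04 and -0.02 in Set 1. The Spearman correlation of the difference with GC content across 14226 genes was 0.619 in Set 3, -0.166 in Set 1 and 0.373 in the fit over both.

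**Figure D2:**
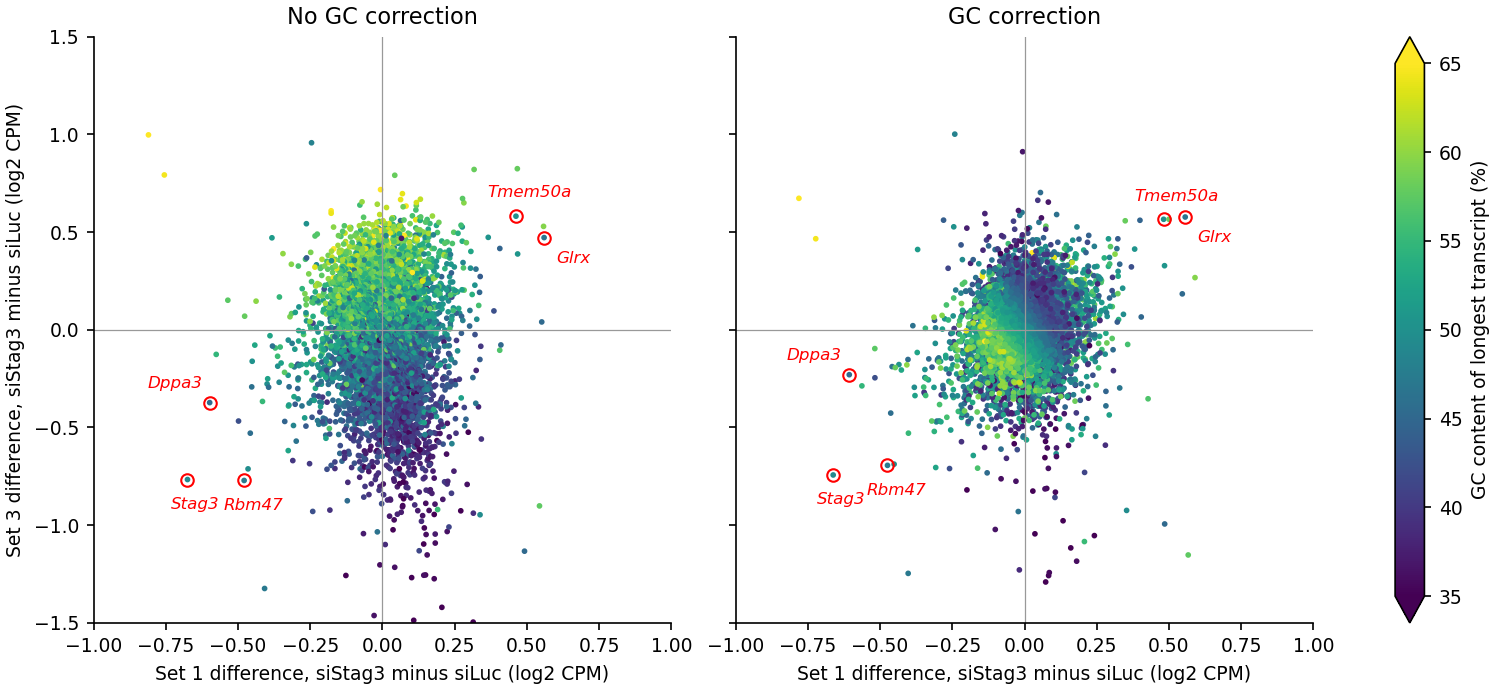
log2 CPM differences of siStag3 minus siLuc in Set 1 (x axis) and Set 3 (y axis) for 9048 genes that reached 3 log2 CPM, coloured by GC content, without (left) and with (right) a GC correction; 11 and 5 genes lie outside the axes. Without the correction the Set 3 difference rises with GC content, while Stag3, Rbm47, Glrx and Tmem50a lie away from 0 on both axes in both panels.

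The fit was repeated with a correction that removed the GC trend of each library. After it, the correlation with GC content was 0.00755, a value near 0 that follows from the correction itself. Among the 9060 genes, 55.7% had the same sign in both sets (r = 0.180). Any siRNA difference that follows GC content would be removed with the trend. With the correction and the set as covariate, 51 genes passed the threshold, or 0.358% of genes, 25 higher (0.175%) and 26 lower (0.183%). They included Stag3 (log2 fold change -0.69), Glrx (0.56), Tmem50a (0.51) and Rbm47 (-0.54), each of which kept its call in all 6 corrected fits with 1 library left out. All 51 had the same sign in both sets after the correction and 49 had it before, and all 51 had an unadjusted p below 0.05 without the correction. With it, 10.6% of all genes had one. The fit that chose the 51 favours genes whose sets agree, and both fits use the same counts. The shared signs and the uncorrected p-values are therefore no separate support for these genes. Of the 22 genes that the DESeq2 Wald test called without the correction, 20 were among the 51. The changes of the 51 were small, with a median absolute log2 fold change of 0.33, 8 genes at 0.5 or more and 2 at 1 or more. In leave-one-out fits with the correction, 13 to 34 genes passed, 13 without siStag3 Set 1 experiment 1, 17 without siLuc Set 1 experiment 3 or siStag3 Set 3 experiment 5, 22 without siStag3 Set 1 experiment 3, 23 without siLuc Set 3 experiment 1 and 34 without siLuc Set 1 experiment 1. Of the 51 genes, 11 passed in every one of these fits and 14 in none. The values of this fit are marked as GC-corrected below. What gave rise to the GC trend was not tested.

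**Figure D3:**
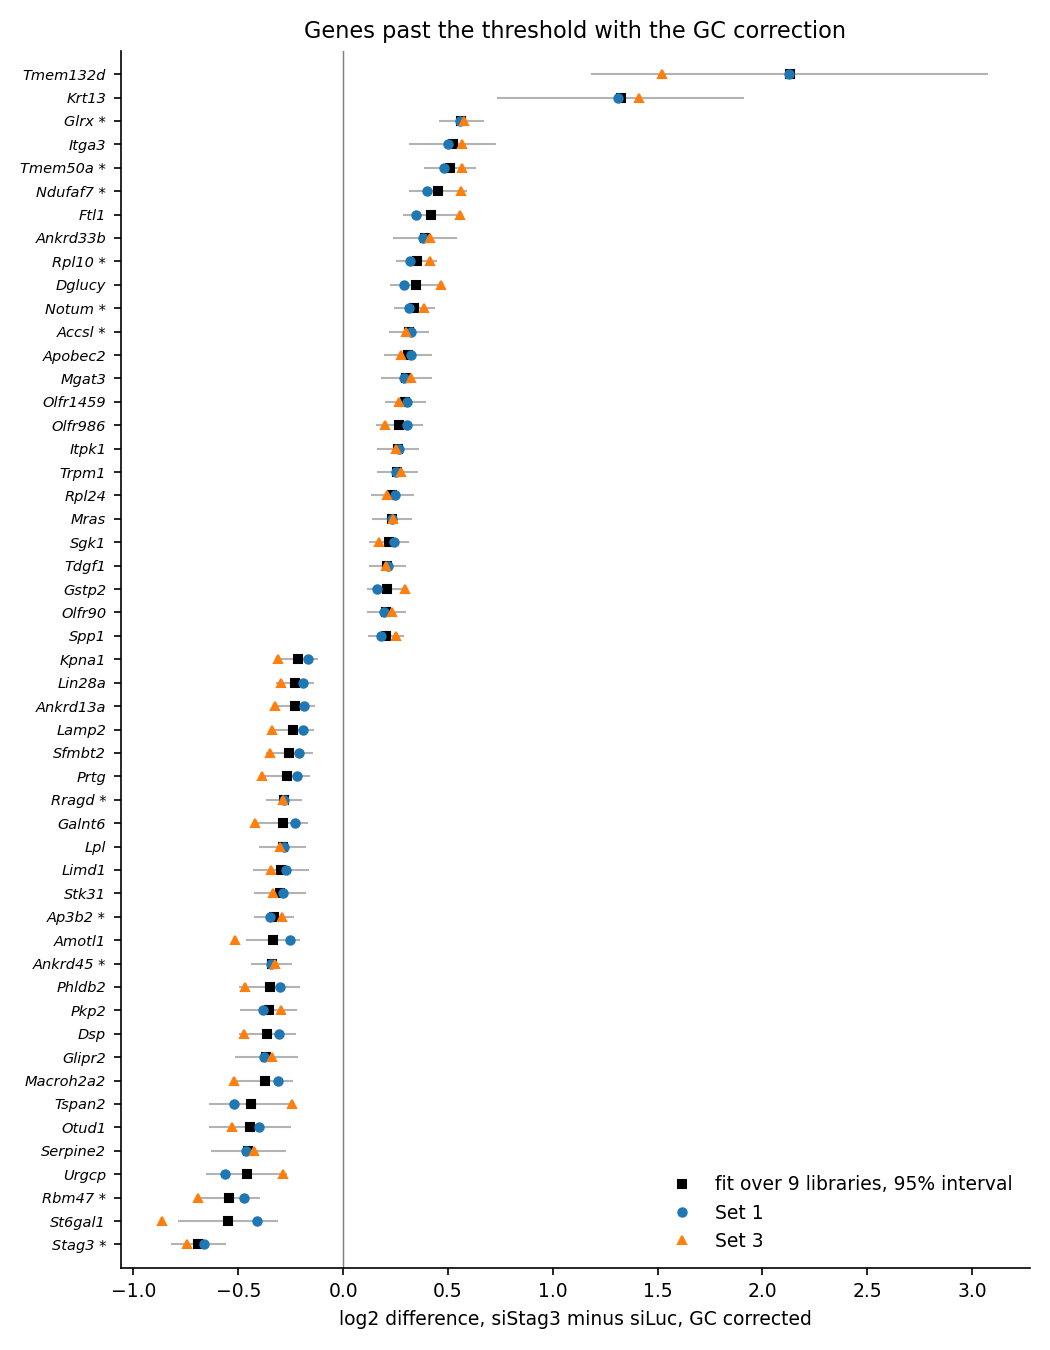
GC-corrected log2 difference of siStag3 minus siLuc for the 51 genes past the threshold in that fit. Squares with lines are the fit over 9 libraries with its 95% interval, circles are Set 1, triangles are Set 3, and an asterisk marks the 11 genes that passed in all 6 fits with 1 library left out. Both sets lie on the same side of 0 for every gene, which the choice of genes by this fit favours.

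Besides Glrx and Tmem50a, 4 higher genes passed in all 6 of those fits: Rpl10, Ndufaf7, Notum and Accsl. Without the correction, the DESeq2 Wald test also called these 4. Its adjusted p was 0.000505 for Rpl10, 0.011 for Ndufaf7, 0.0041 for Notum and 0.00659 for Accsl. Ndufaf7 encodes an assembly factor of mitochondrial complex I. It was at 15.8, 14.7 and 15.5 CPM in siLuc, at 19.7, 20.7 and 20.7 CPM in siStag3 and at 21.1, 20.1 and 22.1 CPM in untreated cells, with a GC-corrected log2 fold change of 0.45 (adjusted p = 0.00189 by edgeR), against 0.41 (0.0872) without correction. As for Glrx, the siLuc libraries lay apart from the other 2 groups. Notum encodes a secreted enzyme that removes the lipid of Wnt proteins and so inactivates them. It was at 44.1, 47.9 and 72.8 CPM in siLuc and at 56.5, 55.3 and 114 CPM in siStag3, with a GC-corrected value of 0.34 (0.00131), against 0.41 (0.154) without correction. Its groups overlapped over all libraries but not within a set. The untreated libraries were at 65.6, 59.5 and 99.8 CPM, and in each set the siLuc libraries were the lowest. Accsl, named for its likeness to plant ACC synthases, was at 44.8, 46.6 and 46.4 CPM in siLuc, at 57.0, 56.0 and 57.8 CPM in siStag3 and at 60.9, 62.0 and 62.1 CPM in untreated cells, so that siLuc was lowest here too. It had 0.32 (0.00189), against 0.31 (0.108). In siLuc against untreated, which shares these libraries, Notum had -0.45 (adjusted p = 0.0108 by edgeR) and Accsl -0.42 (0.00132), and in siStag3 against untreated they had -0.04 (0.841) and -0.12 (0.302). Rpl10, a protein of the large ribosomal subunit, was at 173, 188 and 196 CPM in siLuc and at 221, 231 and 243 CPM in siStag3, with 0.35 (0.00118), against 0.32 (0.0872). Its untreated libraries lay between, at 197, 200 and 201 CPM. Of the 31-base stretches of Rpl10, 60.2% also occur in other genes, so its count is uncertain.

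Besides Stag3 and Rbm47, the lower genes that passed in all 6 were Rragd, Ankrd45 and Ap3b2. Rragd encodes a Rag GTPase that signals amino acid supply to mTORC1 at the lysosome. It was at 227, 230 and 203 CPM in siLuc and at 190, 187 and 155 CPM in siStag3, without overlap, and at 198, 193 and 170 CPM in untreated cells. Its GC-corrected log2 fold change was -0.28 (adjusted p = 0.00189 by edgeR), and in the fit without correction it was -0.32 (0.0746). In siLuc against untreated without correction, Rragd had 0.24 (adjusted p = 0.0243 by edgeR), and in siStag3 against untreated -0.08 (0.475). Ankrd45, an ankyrin repeat gene, was at 102, 93.2 and 35.6 CPM in siLuc, at 73.5, 80.7 and 25.7 CPM in siStag3 and at 111, 114 and 40.0 CPM in untreated cells. The siStag3 library was the lowest in each set, and the GC-corrected value was -0.34 (0.00131), against -0.38 (0.0753). Ap3b2, which encodes a subunit of an adaptor complex of vesicle transport in neurons, had -0.33 (0.00131), against -0.28 (0.298). In siStag3 against untreated without correction, Ankrd45 had -0.57 (adjusted p = 0.000351 by edgeR) and Ap3b2 -0.44 (0.00324). In siLuc against untreated they had -0.20 (0.077) and -0.16 (0.141).

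Several of the other genes with a GC-corrected call belong to known groups, and those named here outside the naming rule were chosen after their values were seen. Dsp and Pkp2 encode desmoplakin and plakophilin 2, plaque proteins of desmosomes, the junctions that tie keratin filaments of neighbouring cells together. Dsp was at 23.9, 27.7 and 21.3 CPM in siLuc and at 20.7, 20.4 and 16.3 CPM in siStag3, lower in each set, with a GC-corrected log2 fold change of -0.36 (adjusted p = 0.0179 by edgeR), against -0.35 (0.221) without correction. Pkp2 was at 22.8, 21.6 and 14.6 CPM in siLuc and at 17.3, 16.3 and 12.1 CPM in siStag3, with -0.35 (0.0179), against -0.36 (0.175), and was also lower in each set. Each passed in 1 of the 6 corrected fits with a library left out. The other desmosome genes were looked at because of these 2, so their counts lend no support to a pattern. Of 7 tested, Dsp and Pkp2 included, 4 were lower at an unadjusted p below 0.05, as were 573 of all 14246 genes, and 4 were lower in both sets, as were 3390 of all genes. Jup, which encodes plakoglobin, was at 163, 167 and 163 CPM in siLuc and at 167, 158 and 219 CPM in siStag3, higher in Set 3.

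Of the 40 genes of small RNA pathways, P-bodies and mRNA decay, Lin28a and Limd1 were lower in siStag3 than in siLuc with the correction. Lin28a encodes the RNA-binding protein that blocks maturation of let-7 microRNAs in stem cells. It was at 136, 140 and 179 CPM in siLuc and at 119, 120 and 147 CPM in siStag3, lower in each set, and at 123, 121 and 145 CPM in untreated cells. The GC-corrected value was -0.23 (adjusted p = 0.0226 by edgeR), against -0.23 (0.228) without correction. In siLuc against untreated without correction, Lin28a had 0.22 (adjusted p = 0.0343 by edgeR), and in siStag3 against untreated -0.01 (0.931). Limd1 encodes a LIM protein of P-bodies that takes part in microRNA silencing. It was at 18.7, 19.3 and 18.6 CPM in siLuc and at 16.0, 15.1 and 15.6 CPM in siStag3, without overlap, and the GC-corrected value was -0.30 (0.0469). Neither gene passed in siStag3 against siLuc without the correction (Limd1 -0.28, adjusted p = 0.394 by edgeR). With it, Lin28a passed in 1 and Limd1 in 0 of the 6 fits with a library left out. Against untreated cells without the correction, Limd1 had 0.03 in siLuc (adjusted p = 0.817 by edgeR) and -0.25 in siStag3 (0.0958).

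Single genes of other functions were also among the 51. None of those called in this paragraph passed in siStag3 against siLuc in edgeR without the correction. Macroh2a2, which encodes a variant of histone H2A found in repressed chromatin, was at 31.3, 32.6 and 23.0 CPM in siLuc and at 24.8, 26.2 and 17.6 CPM in siStag3, with a GC-corrected log2 fold change of -0.37 (adjusted p = 0.0122 by edgeR), against -0.35 (0.154) without correction. Sfmbt2, a Polycomb protein gene, had -0.26 (0.0387), against -0.29 (0.274). Lamp2, which encodes a major membrane protein of lysosomes, had -0.24 (0.0283), against -0.34 (0.592), with uncorrected differences of -0.12 in Set 1 and -0.78 in Set 3. Lpl, which encodes lipoprotein lipase, had -0.29 (0.0197), against -0.34 (0.221), and Serpine2, which encodes a secreted protease inhibitor, had -0.45 (0.0221), against -0.48 (0.117). Among the higher genes, Itga3 encodes an integrin subunit of laminin receptors and had 0.52 (0.0221), against 0.59 (0.221) without correction. Ftl1 encodes the ferritin light chain, an iron store, and had 0.42 (0.00679), against 0.49 (0.355), but 94.9% of its 31-base stretches occur in other genes. The heavy chain gene Fth1 was at 408, 395 and 421 CPM in siLuc and at 403, 399 and 484 CPM in siStag3, and its groups overlapped. The 2 largest values were those of Krt13, 1.32 (0.035; 0.154 without correction), and Tmem132d, 2.13 (0.0262; 0.135), which stood at or below 1.26 CPM in all libraries. In the 6 fits with a library left out, Macroh2a2 and Ftl1 passed in 2, Sfmbt2, Lamp2, Lpl, Serpine2 and Itga3 in 1, and Krt13 and Tmem132d in 0.

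Other genes were named by the rank of their p in the fit without the correction. Tspan2, a tetraspanin gene, was at 10.5, 10.1 and 6.36 CPM in siLuc and at 7.39, 7.18 and 4.59 CPM in siStag3, lower in each set, with -0.49 (adjusted p = 0.154 by edgeR) and a GC-corrected value of -0.44 (0.0469). St6gal1, a sialyltransferase gene, had a GC-corrected value of -0.55 (0.0379), against -0.56 (0.221). On the higher side, Apobec2, a member of the cytidine deaminase family, had 0.31 (0.017), Itpk1, an inositol phosphate kinase gene, 0.26 (0.0179) and Dglucy, a glutamate metabolism enzyme gene, 0.35 (0.0121), all GC-corrected, against 0.34 (0.154), 0.33 (0.203) and 0.36 (0.203). Without the correction, DESeq2 called Apobec2 (adjusted p = 0.0288) and Itpk1 (0.0248). Gm20605 had 0.54 without the correction (0.0703 by edgeR and 0.000145 by DESeq2) and 0.47 with it (0.0788 by edgeR). It overlaps Lrch4 and Sap25 and shares 94.0% of its 31-base stretches, so its count is uncertain. Against untreated cells without the correction, Gm20605 had -0.60 in siLuc (adjusted p = 0.00264 by edgeR) and -0.05 in siStag3 (0.771). Tspan2 and Apobec2 went the other way, called in siStag3 at -0.71 (0.0012) and 0.42 (0.00412) but not in siLuc. St6gal1, Itpk1 and Dglucy were called in neither.

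Cohesin genes other than Stag3 gave no call. Of 22 genes 21 were tested and 0 passed in either fit of edgeR, with 1 at an unadjusted p below 0.05. The median log2 difference was -0.09, against -0.00 for all genes, and split into -0.00 in Set 1 and -0.26 in Set 3. With the GC correction it was -0.02. The median GC content of the list was 42.4%, against 49.6% for all genes, and its part in the Set 3 difference was not tested. The 95% interval of all 21 lay within 0.5 of 0. The core genes Smc3 and Rad21 had -0.09 (95% interval -0.21 to 0.04) and -0.06 (-0.19 to 0.07), and Ctcf, which encodes the factor that stops cohesin loops, had -0.06 (-0.18 to 0.06). The meiotic subunit gene Smc1b had the smallest p, with -0.24 (-0.43 to -0.06, adjusted p = 0.505 by edgeR).

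Meiotic and germline genes had a lower median with no call. Of the 28 tested, 25 had a value below 0 and 3 above, 18 were lower in both sets and 3 higher in both, and 2 reached an unadjusted p below 0.05. The median was -0.20, with -0.08 in Set 1, -0.35 in Set 3 and -0.15 after the GC correction. Over all 14246 genes tested, 7359 were below 0 and 6887 above, and 3390 were lower in both sets and 3412 higher in both. The smallest p was that of Tfap2c, which encodes a transcription factor of germ cell and trophoblast precursors. It was at 66.8, 63.4 and 67.1 CPM in siLuc and at 55.8, 58.5 and 60.9 CPM in siStag3, without overlap, and its log2 fold change was -0.17 (adjusted p = 0.459 by edgeR). The interval was within 0.5 of 0 for 14 of the 28, since many of these genes had few counts.

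**Figure D4:**
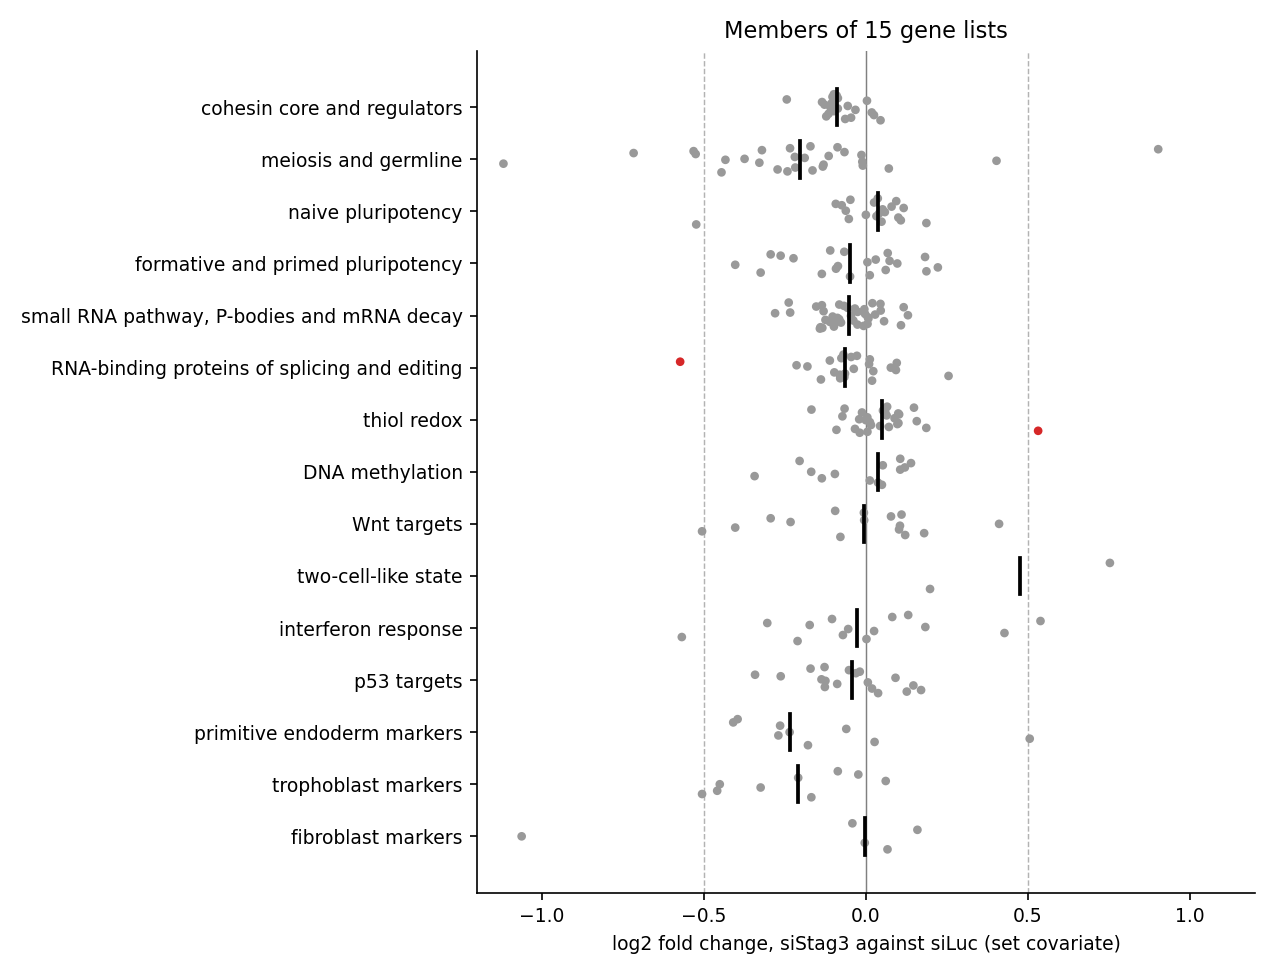
log2 fold change of siStag3 against siLuc, with the set as covariate, for each tested member of 15 gene lists. Points are genes, black bars are list medians, dashed lines mark 0.5 on either side of 0 and red points passed the threshold. Rbm47 and Glrx are the only red points.

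The lists of pluripotency genes held no call by edgeR with or without the GC correction, while Dppa3 was called by DESeq2, as given above. All 20 naive genes were tested, 13 above 0 and 7 below, with a median of 0.04 and 0 calls in edgeR (3 at an unadjusted p below 0.05). The interval lay within 0.5 of 0 for 19 of them, with Dppa3 as the exception. Nanog, which encodes a core factor of the naive state, had 0.04 (95% interval -0.08 to 0.16), Esrrb 0.05 (-0.08 to 0.17) and Klf4 0.03 (-0.10 to 0.17). Of 21 formative and primed genes, 10 were above 0 and 11 below, with a median of -0.05 and 0 calls in edgeR (3 at an unadjusted p below 0.05). Among them Otx2, which encodes a factor of the exit from naive pluripotency, had 0.03 (-0.15 to 0.21). Tdgf1, which encodes a Nodal co-receptor and is among the 8 stem cell markers but in neither list, was at 374, 345 and 357 CPM in siLuc and at 417, 422 and 372 CPM in siStag3, higher in each set. It rose with the GC correction (0.21, adjusted p = 0.0305 by edgeR, passing in 1 of 6 fits with a library left out) and did not pass without it (0.17, 0.484). In the formative and primed list the smallest p was that of Lef1, a Wnt effector gene, at 10.98, 12.69 and 11.81 CPM in siLuc, 8.04, 9.23 and 9.64 CPM in siStag3 and 13.5, 14.2 and 14.4 CPM in untreated cells. Its siStag3 libraries were below all others, but its log2 fold change of -0.40 had an adjusted p of 0.267, and 0.0855 with the GC correction (edgeR). Of the 15 Wnt targets tested, 7 were above 0 and 8 below, and Notum was the 1 call in edgeR, with the GC correction. Without the correction, Notum was called by DESeq2 (adjusted p = 0.0041).

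All 40 genes of small RNA pathways, P-bodies and mRNA decay were tested. In the fit without the correction 0 passed in edgeR, 7 were lower and 0 higher at an unadjusted p below 0.05 (573 and 549 of all 14246 genes), and 39 had an interval within 0.5 of 0. The median was -0.05, with -0.01 in Set 1, -0.15 in Set 3 and -0.02 after the GC correction. Dicer1, which encodes the enzyme that cuts microRNA precursors, had -0.10 (95% interval -0.23 to 0.02). Ago2, the argonaute with slicer activity, had -0.13 (-0.30 to 0.03), and Ddx6, a helicase of P-bodies, had -0.09 (-0.23 to 0.05). Xrn1, which encodes the main cytoplasmic 5′ to 3′ exonuclease, had -0.24 (-0.42 to -0.06, adjusted p = 0.484 by edgeR), made up of -0.08 in Set 1 and -0.57 in Set 3, which differed by the interaction test (0.0492). Of 23 RNA-binding proteins of splicing and editing, Rbm47 was the only call, and the median was -0.06 (-0.01 with the GC correction).

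Thiol redox genes gave Glrx as their only call among 28. Of these, 19 were above 0 and 9 below, with a median of 0.05 (0.00 in Set 1 and 0.13 in Set 3). Glrx5, a mitochondrial glutaredoxin gene, had 0.19 (95% interval 0.04 to 0.33, adjusted p = 0.51 by edgeR), and Txn1, the thioredoxin gene, 0.06 (-0.07 to 0.19). Of 13 DNA methylation genes, 8 were above 0 and 5 below, with 0 calls and 4 at an unadjusted p below 0.05. Dnmt3l, the catalytically inactive partner of the de novo methyltransferases, was at 7.51, 7.73 and 8.66 CPM in siLuc and at 6.41, 5.77 and 6.63 CPM in siStag3, without overlap. Its log2 fold change was -0.34 (adjusted p = 0.394 by edgeR; 0.102 with the GC correction). Dnmt1, the maintenance methyltransferase gene, had 0.04 (-0.10 to 0.17).

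Lists for responses to siRNA or stress were centred near 0. Of 14 interferon response genes tested, 7 were above 0 and 7 below, with a median of -0.03 and 0 calls in edgeR (2 at an unadjusted p below 0.05). Oas1a, a sensor of double-stranded RNA, had the smallest p, with 0.18 (95% interval 0.04 to 0.32, adjusted p = 0.505 by edgeR). Of 18 p53 targets, 7 were above 0 and 11 below, with a median of -0.04 and 0 calls (2 at an unadjusted p below 0.05). Plk2, a kinase gene, had -0.26 (adjusted p = 0.394 by edgeR) and Cdkn1a, the cell cycle inhibitor p21, had 0.15 (-0.00 to 0.30). Of 14 genes of the cleavage-stage state, 2 passed the filter, and Usp17la had 0.20 (-0.38 to 0.78). Markers of other cell types gave 0 calls and 1 unadjusted p below 0.05, with 2 of 9 primitive endoderm markers above 0 (median -0.24), 1 of 9 trophoblast markers (-0.21) and 2 of 5 fibroblast markers (-0.00). Their most extreme ranks by p were Lamb1, a laminin gene, with -0.27 (-0.48 to -0.05), Eomes with -0.33 (-0.65 to 0.00) and Lum with -1.06 (-2.45 to 0.33).

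Gene families, formed from the letters of the symbol, moved little in both sets at the same time. Of 65 families with at least 20 genes, 36 had set medians of the same sign, and for 31 of these the median of the GC-corrected fit over both sets had that sign as well, 15 higher and 16 lower. In 19 of the 31, both GC-corrected set medians had it. Genes of the respiratory chain and ATP synthase (Nduf, Cox, Uqcr and Atp5) had a median of 0.02 in Set 1 and 0.09 in Set 3, and 35 of 95 were higher in both sets against 8 lower in both. The mitochondrial ribosomal protein genes (Mrpl and Mrps) had 29 of 78 higher in both sets and 6 lower in both, with medians of 0.00 and 0.09. Over all 14246 genes, 3412 were higher in both sets and 3390 lower in both. Cytoplasmic ribosomal protein genes (Rpl and Rps) had -0.04 in Set 1 and 0.05 in Set 3 over 101 genes. The family of symbols that start with H and a digit, 71 genes of which 17 are histocompatibility genes, ranked highest by the smaller of its 2 set medians, with 0.05 in Set 1 and 0.31 in Set 3. The Ppp family, protein phosphatase subunits, had 0.03 and 0.04, and the family of symbols with the letter B had 0.03 and 0.10. After the GC correction, the H symbols had 0.04 and 0.20 and Ppp 0.04 and 0.03, but B had 0.04 in Set 1 and -0.04 in Set 3. The lowest were Taf, subunits of the basal transcription factor TFIID, with -0.05 and -0.06, Cyp, cytochrome P450 enzymes, with -0.05 and -0.08, and Kif, kinesin motors, with -0.04 and -0.10. After the correction Cyp had -0.04 and -0.07 and Kif -0.04 and -0.05, while Taf had -0.04 in Set 1 and 0.00 in Set 3. Zinc finger genes (Zfp) had the opposite pattern of sets, with 0.01 in Set 1 and -0.24 in Set 3 over 381 genes, and a median GC content of 43.6%.

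Few genes had a sizeable difference in both sets. Of the 11229 genes whose mean reached 1 log2 CPM, 122 had an absolute difference of at least 0.3 with the same sign in each set, 49 higher and 73 lower, while 45 had it with opposite signs. At 0.5 there were 12 with the same sign and 8 with opposite signs. With the GC correction the counts at 0.3 were 109 and 28, and at 0.5 they were 18 and 8. The siStag3 libraries were all above the siLuc libraries for 453 genes (3.18%) and all below for 486 (3.41%).

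The data also set bounds on the changes that were not found. These bounds are for a difference that the fit takes as common to both sets, not for Set 3 alone. They hold for a knockdown that left Stag3 mRNA at 61.2% of its siLuc level. The 95% interval of the log2 difference lay within 0.5 of 0, that is between 70.7% and 1.41 times the siLuc level, for 10380 genes (72.9%). It lay within 0.25 for 5544 (38.9%) and within 1 for 12954 (90.9%). A pair of one-sided tests against 0.5, adjusted over all genes, passed for 10712 genes (75.2%). Precision depended on the level. Of the 10182 genes whose mean reached 2 log2 CPM, 9694 (95.2%) had an interval within 0.5 and 10140 (99.6%) within 1. Below 0 log2 CPM the median interval reached 0.77 to either side, and 0 of 2015 genes had an interval within 0.5. Of the 1292 genes whose interval reached 1, 1250 had a mean under 2 log2 CPM. In the fit, 81 genes had a log2 fold change of 1 or more in size. The mean of 3 of them reached 2 log2 CPM, and none of the 81 was called. Without the set term, 8442 genes (59.3%) had an interval within 0.5, and with the GC correction 10715 (75.2%).

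**Figure D5:**
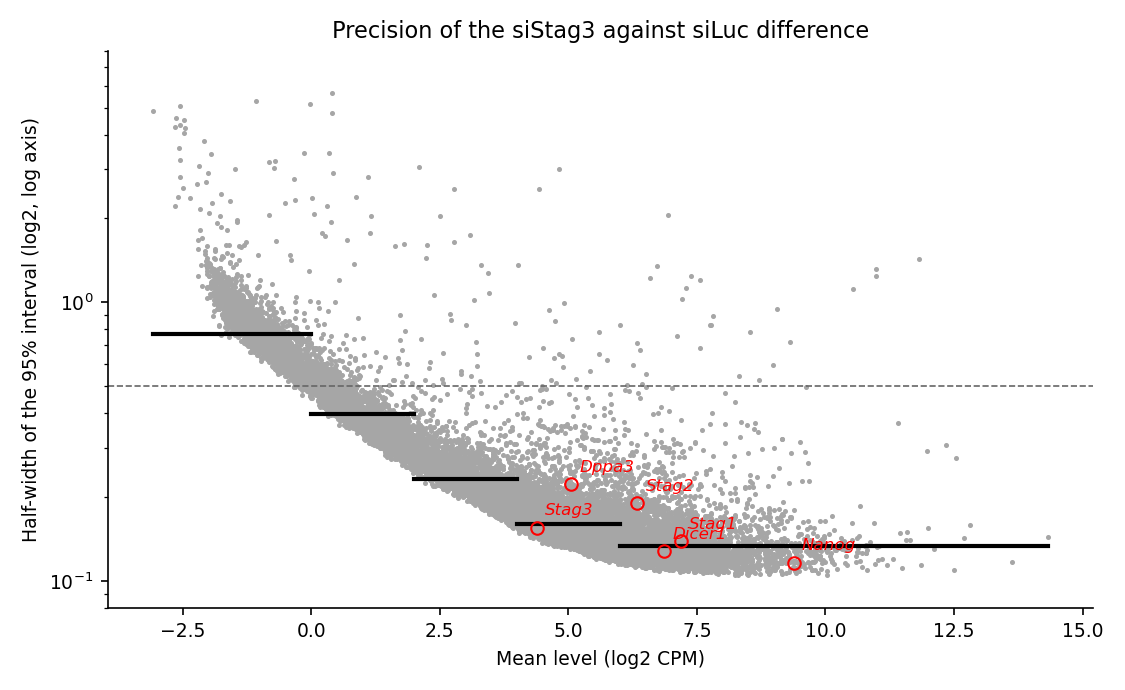
Distance from the log2 difference of siStag3 against siLuc to either end of its 95% interval (y axis, log scale) against mean level in log2 CPM (x axis) for 14246 genes. Black lines are medians of 5 level classes, falling from 0.77 below 0 log2 CPM to 0.13 at 6 and above, and the dashed line marks 0.5.

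The siRNA difference itself differed between the sets for 160 genes (1.12%) in the interaction test of edgeR, 21 (0.147%) with a higher and 139 (0.976%) with a lower value in Set 3. At an unadjusted p below 0.05 there were 21.6% of genes. These genes had a median GC content of 39.6%, against 49.6% for all genes. With the GC correction, 24 genes (0.168%) passed, 13 higher (0.0913%) and 11 lower (0.0772%). None of the 51 genes with a GC-corrected call had an adjusted interaction p below 0.05 in the uncorrected test, and the smallest was 0.076. This does not show that their changes were equal in the 2 sets. The fit that chose them favours genes whose sets agree, and their GC-corrected interaction values are not given here. For Stag3 the interaction was -0.09 (adjusted p = 0.749 by edgeR).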

How the data were processed

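The authors deposited a table of read counts per gene for 9 libraries, as whole numbers with differing totals, with Ensembl gene IDs and symbols. Salmon, FastQC, DESeq2 and the genome build GRCm39 are named in the submitters' processing notes. Which tool made the counts, its strand setting and the annotation release are not given in the sources used here, so the counts may be rounded estimates, and no coordinates are given. The table lists 16636 genes, with a smallest sum of 9 counts over the libraries. Column names give the group, a set and an experiment number, but not the replicate numbers of the sample titles.

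All 9 libraries entered 1 fit of edgeR 4.0.16 (R 4.3.3) with a term for group and set, TMM factors, the filterByExpr filter (14246 genes kept) and robust dispersions. The quasi-likelihood F test was two-sided, adjusted by Benjamini-Hochberg over all genes, with a threshold of 0.05. Intervals are 95% intervals from that fit. CPM values are TMM scaled, and uncorrected differences within a set are of log2 CPM with a prior count of 2. GC-corrected differences within a set used a smaller added count, so low counts are damped less in them. The GC correction subtracted, per library, the median deviation of genes in 20 bins of GC content (longest transcript of GENCODE M21, 16604 gene IDs matched). It was planned as an alternative to the uncorrected fit. P-values measure the spread between these libraries only, and depth limits precision as described by level.

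The comparison, gene lists, naming rule, set term and GC correction were chosen with earlier results of these data known. Named were Stag3, Stag1, Stag2, Glrx, Rbm47 and Dppa3, every called gene, the 10 genes of smallest p in each direction among genes whose mean reached 1 log2 CPM, with the same sign in both sets and no overlap within Set 1, and the member of smallest p in each of 15 lists. Genes past the threshold with the GC correction and the desmosome and ferritin genes were added after their values were seen. Families were formed from the letters before the first digit of a symbol, with at least 20 genes, and the 3 highest and 3 lowest were named by the smaller set median. The alternatives were no set term, other scalings, the DESeq2 1.42.0 Wald test, other count filters, fewer libraries, a block and leaving out each library. The tests were tried on simulated data.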

Additional observations from a re-analysis of the deposited data

Results flagged for a closer look

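The siStag3 against siLuc difference differed between Set 1 and Set 3 for 160 genes by the interaction test of edgeR. In Set 3 the difference is between 1 library and 1 other, from experiments 5 and 1. The GC values beside this count are given above, and their part in it was not tested directly beyond the corrected count of 24.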

How the results depend on the processing

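The count of 4 genes past the threshold was 0 without the set term, 51 with the GC correction, 22 with the DESeq2 Wald test, 1 with only the 6 libraries compared, 0 where a change of 1 or more in size was required as well, and 0 to 4 when 1 library was left out (0 without siStag3 Set 1 experiment 1 and 2 without siLuc Set 1 experiment 3). DESeq2 size factors, total count scaling and a mean of at least 50 counts gave the same 4 genes, and no filter gave 5, the same 4 included. Set 1 alone also gave 4, but shared 2 with them, Glrx and Stag3, and called Gm15023 and Ndor1. Some fits with 1 library left out also called genes outside the 4 of the main fit. These were Gm20605 without siLuc Set 1 experiment 3, Gm15023 without siLuc Set 3 experiment 1 and Ndor1 without siStag3 Set 3 experiment 5. Alternatives chosen after seeing the data combined the GC correction with fewer libraries: 13, 17, 17, 22, 23 and 34 genes without 1 library, 17 in Set 1 alone, 77 with only the 6 libraries compared and 0 with no set term. Stag3 had a log2 fold change of -0.71 without the set term (adjusted p = 0.605 by edgeR) and of -0.76 to -0.67 with 1 library left out, past the threshold in 5 of these 6. The 10380 intervals within 0.5 became 5544 within 0.25, and 9635 to 10206 with 1 library left out. The 160 interactions became 24 with the GC correction. The sign of Stag2 turned with the GC correction (0.0032), in Set 1 alone (0.0645), with the block (0.0097), without siLuc Set 3 experiment 1 (0.012) and without siStag3 Set 3 experiment 5 (0.043), in a range of -0.17 to 0.043 with 1 library left out. Except where an alternative itself leaves out samples, the cause was not tested. Of all other values recomputed, 674 stayed on their side of the threshold or within the replicate spread, 30 passed it newly, 22 lost it and 16 moved.

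Columns carry no replicate numbers. A replicate block of set and experiment called 2 genes, Stag3 and Gm15023, and ended the calls of Glrx (adjusted p = 0.0638 by edgeR), Tmem50a (0.194) and Rbm47 (0.255). Only 2 siLuc and siStag3 pairs share both numbers, with correlations of deviations of 0.568 and 0.368, against 0.542 and 0.551 for the crossed pairs, so the numbers were not taken to pair the libraries. Low counts widen the intervals, and Set 3 has 1 library a group.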
